A study of Homo sapiens with 6 samples.

Results

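The genes described here are 10 chemokines, CCL2, CCL3, CCL4, CCL5, CCL17, CCL20, CCL22, CXCL8, CXCL9 and CXCL10, measured in L428, an established human Hodgkin lymphoma cell line. Their members on the array were all probe sets whose annotation lists one of these symbols and no other gene, which gave 14 of the 49393 probe sets tested. These 14 covered 9 of the 10 genes, out of 18244 genes on the array. CCL4 had no probe set of its own, because its 3 probe sets also list the near-identical copies CCL4L1 and CCL4L2. One group of 3 arrays came from cells given an siRNA against BATF3 (Silencer Select s195280), and the other from cells given Silencer Select Negative Control No. 1 siRNA. All cells were nucleofected with 3 µg of siRNA and were harvested after 48 hours in culture. Nothing in the labels ties the replicates to separate cultures, so the spread between arrays may be technical. A single BATF3 siRNA and a single cell line were used, and mRNA was measured but no secreted chemokine.

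Chemokines are small secreted proteins that attract leukocytes through receptors coupled to G proteins. The first cysteines of the protein give the families their names, adjacent in CC chemokines and parted by another residue in CXC chemokines. Hodgkin lymphoma cells are few among many immune cells in the tumour, and they are known for making CCL17, also called TARC, and CCL22, also called MDC, which attract T cells that carry CCR4. BATF3 is a basic leucine zipper factor of the AP-1 group and is highly expressed in Hodgkin lymphoma cells.

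The comparison asks which of these chemokines L428 cells express and which change when BATF3 is lowered. CCL17 and CCL5 read far above background on every array. CXCL10 lay at the edge of the background, and the other 6 measured chemokines, CCL22 among them, lay below its upper end on every array. The test called 0 of the 14 probe sets changed (limma, Benjamini-Hochberg adjusted p under 0.05), where 0.0101% of all probe sets were called. The lowest adjusted p of a member was 0.581. At an unadjusted p under 0.05 there were 2 of 14, CCL3 and CCL20, where 7.16% of all probe sets reached that level.

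The knockdown itself was seen in every array. BATF3 read 10.87, 10.76 and 10.69 in BATF3 siRNA replicates 1, 2 and 3, and 11.89, 12.08 and 11.94 in control siRNA replicates 1, 2 and 3 (log2 levels). The mean was lower by a log2 difference of −1.20 (SE 0.095), a call at a limma adjusted p of 0.00673 over 18244 genes. Without replicate 3 of the BATF3 siRNA arrays the adjusted p was 0.0688, without replicate 2 of the controls it was 0.0648, and neither is a call. The call was also lost with the array background described next as a covariate (0.250). That fit mostly sets BATF3 siRNA replicate 1 against the controls. Over all alternatives the difference kept between −1.24 and −1.11. Of 13 markers of Hodgkin lymphoma lines, a list that holds CCL17 and BATF3 themselves, 12 read above the highest background probe set on every array and IL13 on some. Of 6 measured B cell markers CD79B and PAX5 did so on every array, and of 8 fibroblast, endothelial and epithelial markers PECAM1 did on some. None of the 9 T and NK cell markers or the 8 myeloid markers did so on any array. Their summed linear signals were 219 to 238 after BATF3 siRNA against 199 to 222 in controls for T and NK cells, and 168 to 174 against 146 to 180 for myeloid cells.

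Background was read from control probe sets that match no human sequence and are sorted by how many G and C bases their probes hold. Averages lay at 2.06 to 2.20 (log2) where probes held 3 to 15 such bases, and the highest, with 25, read 6.68 to 7.32. The files used here do not give the G and C content of the chemokine probes. A level between these bounds therefore shows neither expression nor its absence. Background rich in G and C (20 to 25 bases) averaged 5.92 and 5.98 in BATF3 siRNA replicates 2 and 3 and 6.46 to 6.49 on the other 4 arrays. For any gene, a fit with it as a covariate mostly sets BATF3 siRNA replicate 1 against the controls. Such a fit is no test of the background. By the upper bound 4 of the 14 probe sets, those of CCL17 and CCL5, were above background on all 6 arrays, where 37.6% of all probe sets were.

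**Figure D1:**
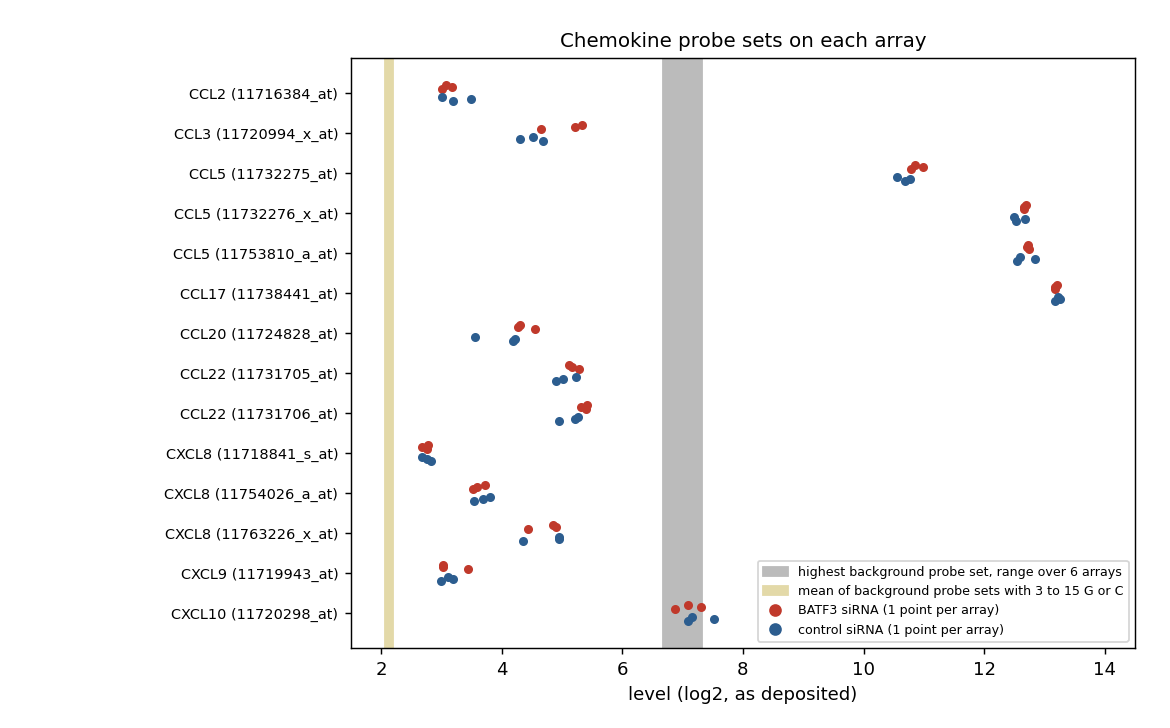
Log2 level of each of the 14 chemokine probe sets on the 6 arrays, with BATF3 siRNA arrays as red points and control siRNA arrays as blue points. The grey band is the range of the highest background probe set (6.68 to 7.32) and the yellow band that of background probe sets poor in G and C (2.06 to 2.20). CCL17 and CCL5 lie to the right of the grey band and the rest, other than CXCL10, between the bands. CXCL10 lies on the grey band except in control siRNA replicate 2, which lies to its right.

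CCL17 encodes a ligand of CCR4 and was read by 1 probe set, 11738441_at. Its levels were 13.17, 13.18 and 13.21 in BATF3 siRNA replicates 1 to 3 and 13.17, 13.26 and 13.22 in control siRNA replicates 1 to 3 (log2). The groups overlapped, and all 6 arrays lay within 0.091 of each other. The difference was −0.031 (SE 0.086; limma adjusted p = 0.964), which is a ratio of 0.978 with a 95% confidence interval of 0.856 to 1.12. This was the narrowest interval of the 14 probe sets, and a fall as large as that of BATF3, to 0.436 of control, lies outside it. The highest probe set other than controls read 13.86 to 13.93 on these arrays, not far above CCL17. Whether a difference is read in full so near the top was not tested. The narrow interval therefore holds for the deposited values only. In a measure of bulk RNA, fewer expressing cells and less RNA per cell cannot be told apart, for this gene and those that follow.

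CCL22, the other ligand of CCR4, was read by 2 probe sets, and neither rose above the highest background probe set on any array. Probe set 11731706_at read 5.39, 5.31 and 5.41 in BATF3 siRNA replicates 1 to 3 and 4.95, 5.21 and 5.26 in the control replicates (log2). All 3 BATF3 siRNA arrays lay above all 3 controls, by 0.23 on average (SE 0.11; limma adjusted p = 0.707). Probe set 11731705_at read 5.28, 5.16 and 5.11 against 4.90, 5.02 and 5.23, and here the groups overlapped, with a difference of 0.13 (SE 0.11; limma adjusted p = 0.851). Both probe sets had a positive difference and neither passed. Without control siRNA replicate 1 the differences were 0.14 for 11731706_at and 0.058 for 11731705_at, and without control siRNA replicate 3 they were 0.29 and 0.22. With array weights 11731705_at was at 0.0064. The deposited values therefore do not show CCL22 to be expressed in L428, nor do they show that it is absent.

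RefSeq promoter windows were used for 6 of the 10 genes, and not for CCL2, CCL4, CCL5 or CCL17. They were searched for the AP-1 motif TGANTCA, to which BATF and JUN family proteins are known to bind, for the palindromic STAT6 motif and for the NF-kappaB motif, on both strands of the 250 bases before the start site given in the table. Over all 35116 windows in the table, 6.57% held the AP-1 letters, 5.38% the STAT6 letters and 5.21% the NF-kappaB letters. CCL22 is shown because its level is in question and its window held 1 NF-kappaB match and no AP-1 or STAT6 match. CXCL10 is shown because it lay at the edge of the background and held 2 NF-kappaB matches, the most of any member. CXCL8 is shown as the member with an AP-1 match, and CCL20 with 1 NF-kappaB match because it is among those with the larger differences. The windows are from GRCh38.p14, run 5′ to 3′ on the strand of the gene, and carry the matched letters in capitals. CCL22 lies on the plus strand at chr16:57358533-57358782, CXCL10 on the minus strand at chr4:76023498-76023747, CXCL8 on the plus strand at chr4:73740319-73740568 and CCL20 on the plus strand at chr2:227813592-227813841.
CCL22: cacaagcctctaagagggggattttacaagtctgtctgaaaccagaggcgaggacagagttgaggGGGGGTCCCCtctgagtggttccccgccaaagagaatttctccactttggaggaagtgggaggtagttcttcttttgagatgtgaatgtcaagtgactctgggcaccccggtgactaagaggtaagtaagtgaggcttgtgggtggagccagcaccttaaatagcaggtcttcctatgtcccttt
CXCL10: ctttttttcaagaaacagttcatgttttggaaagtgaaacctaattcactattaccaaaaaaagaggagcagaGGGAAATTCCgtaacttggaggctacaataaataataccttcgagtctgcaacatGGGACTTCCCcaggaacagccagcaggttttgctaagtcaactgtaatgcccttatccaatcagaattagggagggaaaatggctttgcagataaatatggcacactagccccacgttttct
CXCL8: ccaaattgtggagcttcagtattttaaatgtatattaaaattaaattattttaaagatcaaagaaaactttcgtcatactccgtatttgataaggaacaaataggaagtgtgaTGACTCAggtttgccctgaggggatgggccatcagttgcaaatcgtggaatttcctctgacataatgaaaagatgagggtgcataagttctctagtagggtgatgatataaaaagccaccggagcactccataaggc
CCL20: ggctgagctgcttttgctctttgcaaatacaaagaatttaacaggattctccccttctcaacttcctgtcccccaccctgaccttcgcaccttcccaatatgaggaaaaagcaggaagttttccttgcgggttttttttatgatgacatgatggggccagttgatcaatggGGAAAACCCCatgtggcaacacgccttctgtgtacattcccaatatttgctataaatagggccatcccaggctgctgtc
The AP-1 match of CXCL8 begins 137 bases before that start, and the CXCL10 matches to NF-kappaB begin 177 and 122 bases before it. The CCL22 match begins 185 bases before the start and the CCL20 match 79. CCL3 and CXCL9 had none of the 3 motifs in any window. These are letter matches in short windows and not measured binding, and a site that departs from the letters was not marked.

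CCL5, also called RANTES, attracts T cells, monocytes and eosinophils. All 3 of its probe sets read above the highest background probe set on all 6 arrays. Probe set 11732275_at read 10.78, 10.99 and 10.85 in BATF3 siRNA replicates 1 to 3 and 10.69, 10.76 and 10.55 in the control replicates (log2). These groups did not overlap, with BATF3 siRNA above. The difference was 0.20 (SE 0.10; limma adjusted p = 0.739), a ratio of 1.15 with a 95% confidence interval of 0.984 to 1.35.

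The other CCL5 probe sets had smaller differences and groups that overlapped. Probe set 11732276_x_at read 12.66, 12.65 and 12.70 after BATF3 siRNA and 12.53, 12.68 and 12.49 after control siRNA (log2), a difference of 0.10 (SE 0.092; limma adjusted p = 0.861). Probe set 11753810_a_at read 12.75, 12.72 and 12.73 against 12.55, 12.85 and 12.59, a difference of 0.068 (SE 0.10; limma adjusted p = 0.927). Control siRNA replicate 2 was the highest of the control arrays on each of the 3 CCL5 probe sets. On 11753810_a_at it was the highest of all 6 arrays. The difference of 11753810_a_at was 0.16 without that array, 0.012 without control siRNA replicate 1 and 0.031 without control siRNA replicate 3, so its size depends on which control is left out. Over all alternatives 11732275_at ran from 0.11 to 0.29 and 11732276_x_at from 0.066 to 0.16. The 95% intervals of the 3 probe sets ran from −0.17 to 0.43 between them, so none held a change as large as 1 log2 unit. Probe sets 11732276_x_at and 11753810_a_at also read high on these arrays. Whether a difference is read in full at such levels was not tested, so the intervals hold for the deposited values only.

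CCL3, also called MIP-1alpha, is an inflammatory chemokine that attracts monocytes and T cells. Its probe set, 11720994_x_at, belongs to the class whose name marks probes that may also match related sequences, and CCL3 has close copies. CCL5 11732276_x_at and CXCL8 11763226_x_at are of the same class. The CCL3 probe set read 4.66, 5.21 and 5.33 in BATF3 siRNA replicates 1 to 3 and 4.69, 4.30 and 4.52 in the control replicates (log2). BATF3 siRNA replicates 2 and 3 stood above all controls, while replicate 1 lay among them. The difference of 0.56 was the largest of the 14 (SE 0.175; 95% confidence interval 0.17 to 0.95; limma adjusted p = 0.581).

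The CCL3 levels were all below the highest background probe set. The 2 arrays that stood high were those with the lower background rich in G and C. The part of that background in the CCL3 result was not tested. The fit with it as a covariate gave 0.19, but the covariate nearly marks the same 2 arrays, so that fit mostly sets BATF3 siRNA replicate 1 against the controls and is no test of the background. The difference was 0.43 to 0.76 when each array was left out in turn. The 3 probe sets that list CCL4, the MIP-1beta chemokine, with its copies read 3.25 to 4.36 over the 6 arrays and were not counted as CCL4.

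CCL20 attracts cells that carry CCR6, among them a class of helper T cells and immature dendritic cells. Probe set 11724828_at read 4.55, 4.27 and 4.31 in BATF3 siRNA replicates 1 to 3 and 4.19, 4.21 and 3.56 in the control replicates (log2). The groups did not overlap, with BATF3 siRNA above, but 2 of the controls lay close under the BATF3 siRNA arrays and control siRNA replicate 3 lay apart. The difference was 0.39 (SE 0.17; 95% confidence interval 0.0034 to 0.78; limma adjusted p = 0.696), and without control siRNA replicate 3 it was 0.18. It was 0.57 with the background as a covariate and 0.60 with array weights. All levels were below the highest background probe set. CCL2, also called MCP-1, a monocyte attractant for CCR2, read 3.01, 3.17 and 3.08 against 3.20, 3.48 and 3.01, with overlapping groups and a difference of −0.14 (SE 0.13; limma adjusted p = 0.861). This was −0.015 without control siRNA replicate 2, −0.25 without control siRNA replicate 3 and 0.014 with array weights.

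CXCL9 and CXCL10 are ligands of CXCR3 that interferon gamma is known to induce. CXCL10 probe set 11720298_at read 6.87, 7.31 and 7.09 in BATF3 siRNA replicates 1 to 3 and 7.09, 7.53 and 7.16 in the control replicates (log2). It exceeded the array's own upper background bound in BATF3 siRNA replicates 2 and 3 and in control siRNA replicate 2. That bound was 6.68 and 6.73 on BATF3 siRNA replicates 2 and 3 and 7.11 to 7.32 on the other arrays. Control siRNA replicates 1 and 3 read no lower than BATF3 siRNA replicate 3 but stayed under their own bound. The groups overlapped, and replicate 2 was the highest array of each siRNA. The difference was −0.17 (SE 0.15; 95% confidence interval −0.50 to 0.16; limma adjusted p = 0.858), −0.035 without control siRNA replicate 2 and −0.39 with the background as a covariate. CXCL9 read 3.43, 3.03 and 3.02 against 2.99, 3.18 and 3.10, where BATF3 siRNA replicate 1 was the highest array and the others overlapped (difference 0.067, SE 0.13; limma adjusted p = 0.946). It was −0.070 without that array and 0.32 with the background as a covariate.

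CXCL8, or interleukin-8, attracts neutrophils through CXCR1 and CXCR2 and was read by 3 probe sets, none above the highest background probe set on any array. Probe set 11718841_s_at read 2.68 to 2.77 after BATF3 siRNA and 2.67 to 2.83 after control siRNA (log2). For 11754026_a_at the levels were 3.52 to 3.73 and 3.54 to 3.80, and for 11763226_x_at they were 4.43 to 4.89 and 4.35 to 4.96. The groups overlapped on each. The differences were −0.017 (SE 0.091), −0.065 (SE 0.10) and −0.023 (SE 0.18), with limma adjusted p of 0.983, 0.932 and 0.989. On 11763226_x_at replicate 1 of both siRNAs lay below the other arrays.

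**Figure D2:**
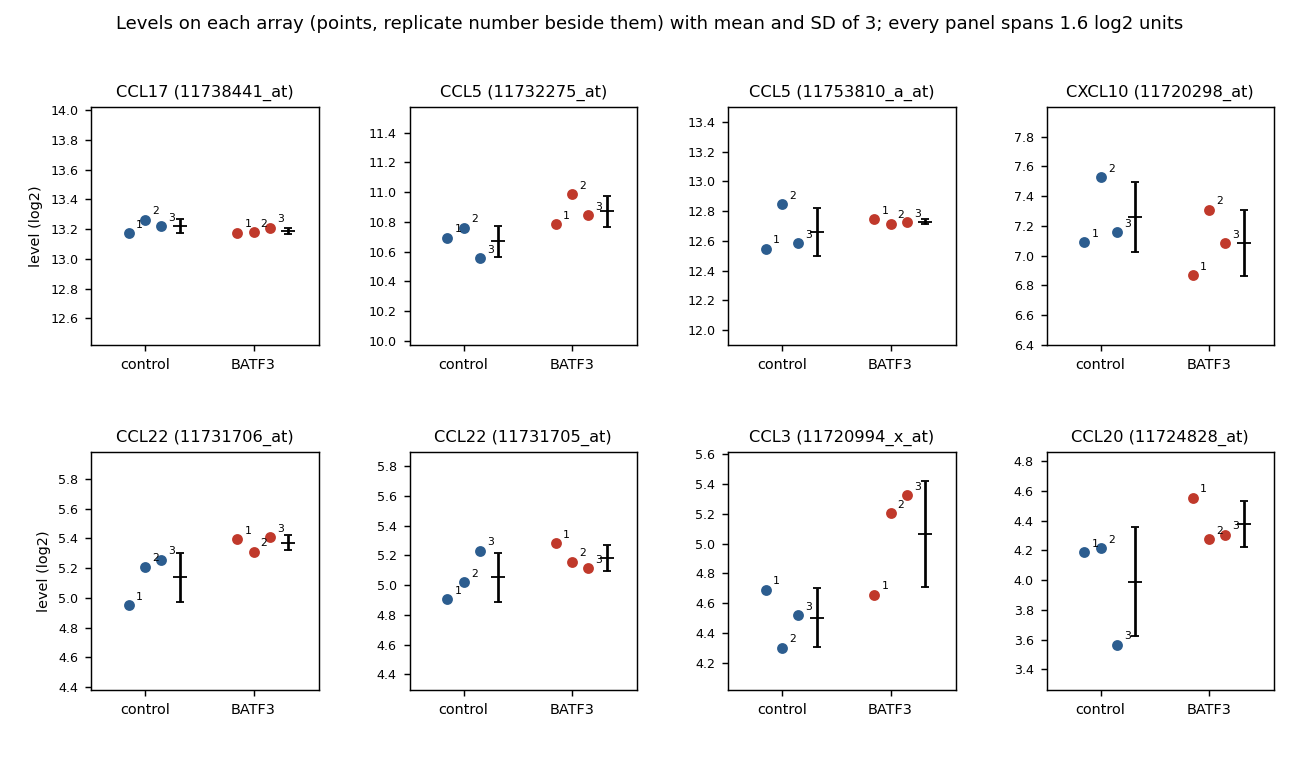
Log2 level on each array for 8 chemokine probe sets, control siRNA in blue and BATF3 siRNA in red, with the replicate number beside each point and the mean and SD of 3 arrays in black; every panel spans the same height. CCL17 varies least, the groups of CCL5 11732275_at, CCL22 11731706_at and CCL20 do not overlap, and CCL3 is high only in BATF3 siRNA replicates 2 and 3.

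Across the set, 3 of the 14 probe sets had all BATF3 siRNA arrays above all controls (CCL5 11732275_at, CCL20 11724828_at and CCL22 11731706_at), where 6.38% of all probe sets did. In the other direction there were 0 of 14, where 5.86% did. An exact permutation test (two-sided) gave p = 0.1 for each of the 3, the smallest value that 3 arrays against 3 allow. The difference was positive for 8 of 14 and negative for 6, where 48.9% of all probe sets were positive, with a median of 0.067 against −0.0036 over all probe sets. Several members share a gene, so the 14 are not independent of each other.

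**Figure D3:**
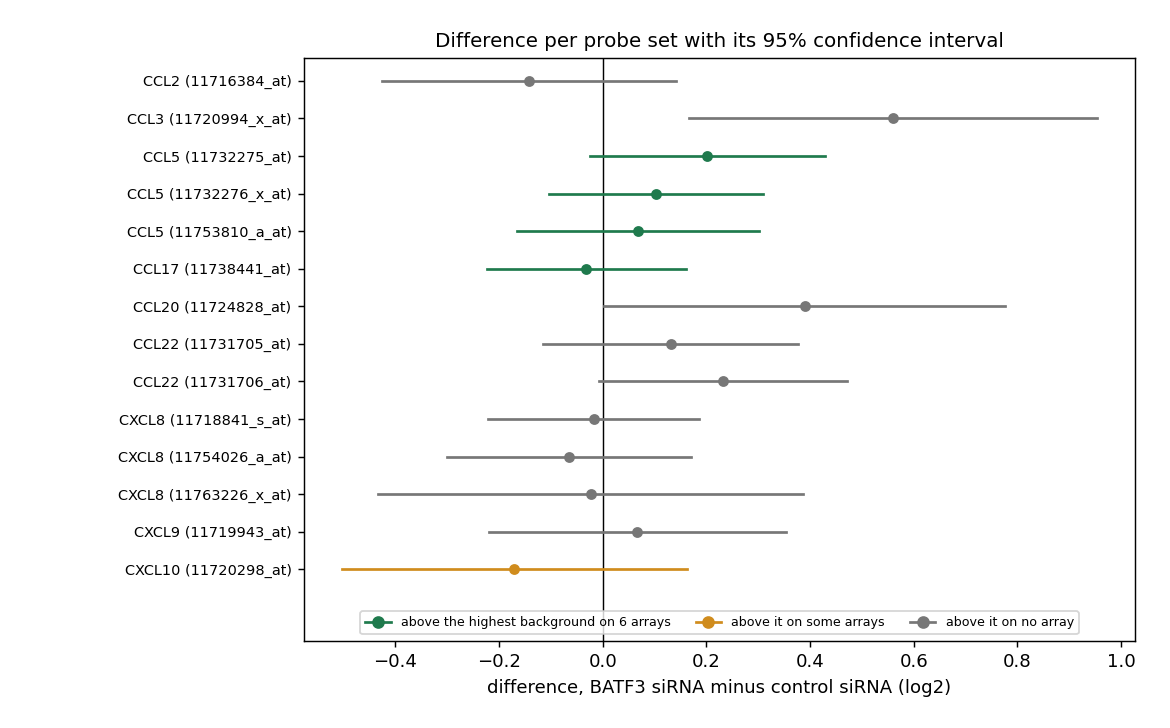
Difference between BATF3 siRNA and control siRNA (log2) for each of the 14 chemokine probe sets, with the 95% confidence interval from the limma fit as a line. Green marks probe sets above the highest background on 6 arrays, orange on some and grey on none; the intervals of CCL3 and CCL20 alone leave out 0, before adjustment for the number of tests.

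The wider chemokine system was described with one probe set per gene, the one with the highest mean, and 18244 genes. Among these 0.0164% were called, 7.15% had an unadjusted p under 0.05 and 49% had a positive difference. Of 15 measured other CC ligands 0 were called higher and 0 lower (0 at an unadjusted p under 0.05), 9 had a positive difference and the median was 0.026, against −0.0027 over all genes. CCL1, a ligand of CCR8, was the member of that list above background on all arrays, at 11.47, 11.14 and 11.17 against 11.22, 11.17 and 11.18 (log2; difference 0.066, SE 0.11; limma adjusted p = 0.937), and CCL27 was above it on some. For CCL1, BATF3 siRNA replicate 1 stood above the other arrays, which overlapped. The members with the smallest p were CCL8, at +0.29, CCL16 at −0.22, CCL24 at −0.13 and CCL15 at +0.12, and all 4 read below the highest background probe set on every array.

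Of 16 other CXC, C and CX3C ligands 0 were called (1 at an unadjusted p under 0.05), 9 had a positive difference and the median was 0.015. CX3CL1, or fractalkine, a chemokine held on the cell surface by a membrane anchor, alone read above background on all arrays. Its gene lies between CCL22 and CCL17 on chromosome 16 in the RefSeq table. It read 9.71, 9.51 and 9.67 in BATF3 siRNA replicates 1 to 3 and 9.61, 9.70 and 9.64 in the controls (log2), with overlapping groups and a difference of −0.017 (SE 0.092; limma adjusted p = 0.983), which was 0.0044 after median centring. Of these neighbours CCL17 and CX3CL1 were thus well above background and CCL22 was not shown to be. CXCL16, which binds CXCR6, had the smallest p of the list, at 6.415, 6.005 and 6.345 against 6.69, 6.42 and 6.74 (difference −0.36, SE 0.13; limma adjusted p = 0.622). Those groups lay side by side with BATF3 siRNA below, as for 5.78% of all genes, and no level exceeded the highest background probe set. CXCL2 was at +0.19, CXCL5 at +0.13 and CXCL3 at +0.12, also below that probe set.

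Of 21 measured chemokine receptors 0 were called (0 at an unadjusted p under 0.05), 10 had a positive difference and the median was −0.046. Only CCR4, CCR7 and CXCR4 read above the highest background probe set on all arrays, and the other 18 did so on none. CCR4, the receptor of CCL17 and CCL22, read 10.90, 10.68 and 10.77 in BATF3 siRNA replicates 1 to 3 and 11.01, 10.89 and 10.93 in the controls (log2). BATF3 siRNA replicate 1 overlapped the controls, and the difference was −0.16 (SE 0.094; 95% confidence interval −0.37 to 0.050; limma adjusted p = 0.804). CCR7, which guides lymphocytes to lymph nodes, read 11.85, 11.62 and 11.71 against 11.87, 11.96 and 11.91, a difference of −0.18 (SE 0.093; limma adjusted p = 0.763). Its BATF3 siRNA arrays all lay below the controls, replicate 1 by very little. CXCR4, the receptor of CXCL12, was at 12.09, 12.15 and 12.25 against 12.22, 11.72 and 12.10, where control siRNA replicate 2 was lowest and the rest overlapped (difference 0.15, SE 0.13; limma adjusted p = 0.862). CXCR6 at +0.24 and the scavenger receptor ACKR3 at −0.18 were below the highest background probe set.

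**Figure D4:**
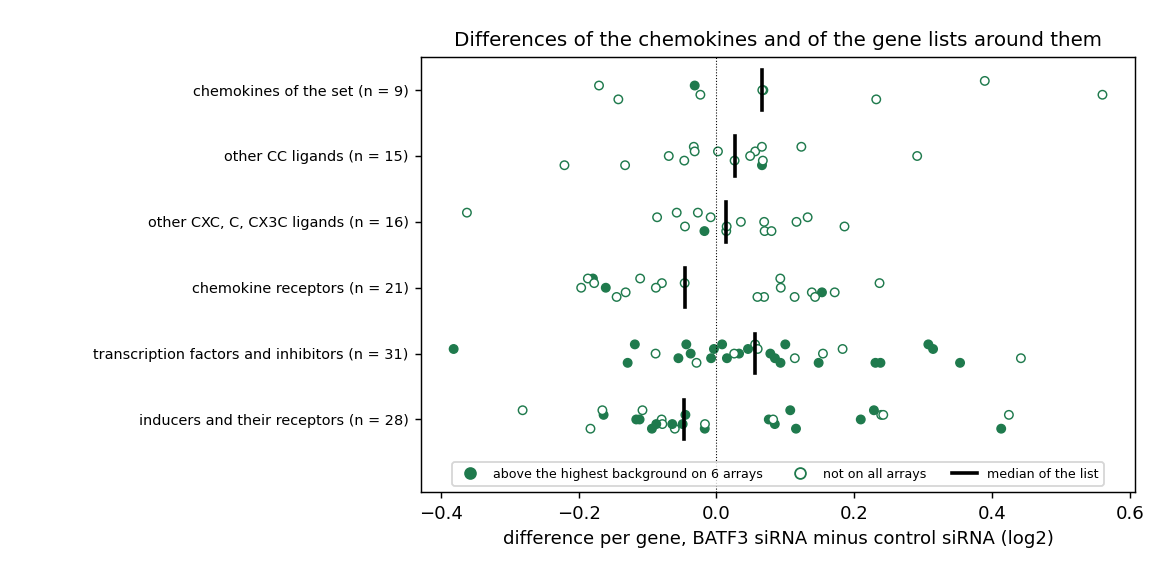
Difference per gene (log2, BATF3 siRNA minus control siRNA) for the 9 measured chemokines and the 5 lists around them, each point a gene, filled where it read above the highest background on 6 arrays, with the list median as a black bar. The list medians lie between −0.047 and 0.067.

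Transcription factors and inhibitors known to act at chemokine genes include NF-kappaB and its inhibitors, STAT and IRF factors, C/EBP proteins and AP-1. Of 31 measured 0 were called (6 at an unadjusted p under 0.05), 21 had a positive difference and the median was 0.056. In 6 of the 31 the BATF3 siRNA arrays all lay above the controls, where 6.36% of all genes did, and in 1 they all lay below, where 5.78% did. CEBPB, a factor of inflammatory gene induction, read 7.80, 7.65 and 7.77 in BATF3 siRNA replicates 1 to 3 and 7.41, 7.07 and 7.41 in the controls (log2; difference 0.44, SE 0.11; limma adjusted p = 0.448). JUN, an AP-1 subunit and partner of BATF proteins, read 9.78, 9.56 and 9.80 against 9.56, 9.22 and 9.42 (difference 0.31, SE 0.11; limma adjusted p = 0.620). Replicate 2 of each siRNA was lowest for both genes, and for JUN the lowest BATF3 siRNA array barely cleared the highest control.

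JUNB, another AP-1 subunit, was at +0.31 (SE 0.12; limma adjusted p = 0.648). STAT5B, a cytokine-activated factor, read 9.50, 9.55 and 9.68 against 10.05, 9.81 and 10.01 (log2), a difference of −0.38 (SE 0.10; limma adjusted p = 0.475) with all BATF3 siRNA arrays below all controls. STAT6, which interleukin-4 and interleukin-13 activate and which is known to drive CCL17, read 11.12, 11.14 and 11.10 against 11.14, 11.20 and 11.13. These overlapped, with a difference of −0.044 (SE 0.082; limma adjusted p = 0.948). NFKBIA, the NF-kappaB inhibitor that NF-kappaB itself induces, was at +0.093 (limma adjusted p = 0.870) and IRF1, a factor of interferon gamma responses, at +0.15 (limma adjusted p = 0.807).

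Of 28 measured inducers of chemokine genes and their receptors 0 were called (3 at an unadjusted p under 0.05), 11 had a positive difference and the median was −0.047. In 3 of them the BATF3 siRNA arrays all lay above the controls, where 6.36% of all genes did, and in 0 below. TNF, an inflammatory cytokine that induces many chemokines, read 9.55, 9.63 and 9.48 in BATF3 siRNA replicates 1 to 3 and 9.003, 9.31 and 9.11 in the controls (log2; difference 0.41, SE 0.10; limma adjusted p = 0.446). TRAF1, an adaptor of TNF receptors, read 11.39, 11.36 and 11.36 against 11.18, 11.18 and 11.12 (difference 0.21, SE 0.082; limma adjusted p = 0.648). In both genes the arrays of each siRNA lay on their own side.

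TLR3, a sensor of double-stranded RNA, was at 4.88, 4.89 and 4.79 against 4.44, 4.35 and 4.49, below the highest background probe set on every array (difference 0.42, SE 0.087; limma adjusted p = 0.337). TNFRSF1A, a receptor of TNF, was at −0.28 (limma adjusted p = 0.709) and also below that bound. IL13, which acts through STAT6, read 7.07, 7.14 and 6.80 against 6.87, 7.23 and 7.09, with overlapping groups at the edge of the background (difference −0.060, SE 0.13; limma adjusted p = 0.954). CCL1, CX3CL1, CXCR4, STAT6, NFKBIA, IRF1 and IL13 were named after their values were seen.

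**Figure D5:**
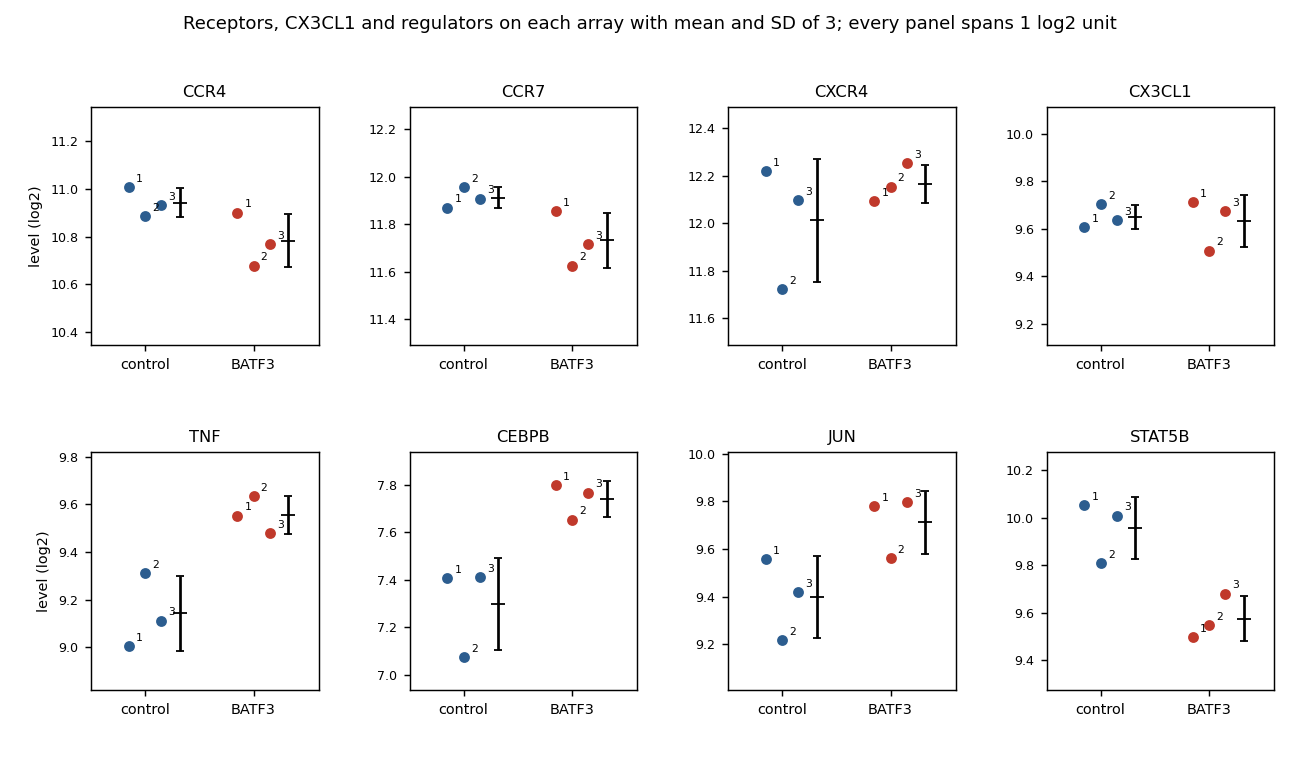
Log2 level on each array for 3 receptors, CX3CL1, TNF and 3 transcription factors, control siRNA in blue and BATF3 siRNA in red, with the replicate number beside each point and the mean and SD of 3 arrays in black; every panel spans 1 log2 unit. The groups of TNF, CEBPB, JUN, STAT5B and CCR7 do not overlap, and those of CCR4, CXCR4 and CX3CL1 do. TNF, CEBPB, JUN, STAT5B, CCR7 and CCR4 were named for a small p in their lists, which favours separated groups. Over all genes the BATF3 siRNA arrays all lay above the controls in 6.36% and below in 5.78%.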

How the data were processed

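RNA of L428 cells was measured on Affymetrix PrimeView arrays, grouped by the labels. The authors deposited 1 value per probe set and array, taken as log2 from the range of the values. According to the submitters' processing notes the affy package was used. The background correction, normalization and summarization were not given in the sources used here. All values were used as deposited.

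Symbols came from the platform annotation, which lists 1 gene for 45278 of 49393 non-control probe sets, several for 1333 and none for 2782. By Entrez identifier 45208 were found in RefSeq (GRCh38.p14), and 0 symbols changed. Differences, BATF3 siRNA minus control siRNA, were fitted by lmFit and eBayes of limma 3.58.1 (R 4.3.3; two-sided, no covariate) over all probe sets for the 10 chemokines. BATF3 and the lists were fitted over 18244 genes, each read by its probe set with the highest mean. Benjamini-Hochberg adjustment ran over the whole table, and intervals are 95% confidence intervals. The number of arrays limits the precision (median SE 0.11).

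Named are all members, BATF3 and the 4 genes of each list with the smallest p. Members and lists were chosen with earlier results of these data known. Alternatives covered normalization, filters, the prior, array weights, the replicate block, a background covariate, the probe set of a gene and leaving out each array.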

Additional observations from a re-analysis of the deposited data

How the results depend on the processing

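Over all alternatives that were run, 0 of the 14 chemokine probe sets and 0 of the 9 chemokine genes were called. Of 192 recomputed differences of chemokine probe sets, 182 kept their direction and 10 changed it. The filters on dim probe sets left only the CCL5, CCL17 and CXCL10 probe sets to be tested. The changes were in CCL2 (0.014 with array weights, 0.022 at the gene level), in CXCL9 (−0.070 without BATF3 siRNA replicate 1) and in CXCL8. CXCL9 ran up to 0.14 when another array was left out and was 0.32 with the background covariate. CXCL8 11718841_s_at was at 0.0083 with the array background as a covariate, 0.028 with array weights, 0.0043 after median centring, and ran from −0.058 to 0.023 when arrays were left out. CXCL8 11763226_x_at, which stands for the gene, ran from −0.22 to 0.12 when arrays were left out, and was positive without control siRNA replicate 2 or 3 or BATF3 siRNA replicate 1. Under at least 1 alternative the difference moved by over 1.5 times in 14 of the 14 probe sets and in 22 of 27 other named genes. Over all alternatives JUN ran from 0.22 to 0.65, JUNB from 0.20 to 0.53, CCR7 from −0.24 to −0.059, CCR4 from −0.22 to −0.042, CXCR6 from 0.0057 to 0.37 and CCL15 from 0.0062 to 0.21. Among other named genes ACKR3 turned to 0.029 as the mean of its probe sets, CXCL2 to −0.021 with the background covariate, CXCL5 to −0.0086 with array weights, and CX3CL1 to 0.068 with the background covariate and 0.0044 after median centring. When arrays were left out CCL1 ran from −0.038 to 0.12, CX3CL1 from −0.058 to 0.045 and IL13 from −0.16 to 0.040. None of these values was called, and the cause was not tested. BATF3 stayed lower throughout; its call was lost with the background covariate (−1.11, limma adjusted p = 0.250) and when BATF3 siRNA replicate 3 (−1.16, 0.0688) or control siRNA replicate 2 (−1.14, 0.0648) was left out, with values of −1.24 to −1.14 over the 6 fits that left out an array.

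Counts over the whole table moved more. Genes called numbered 3 in the fit as reported (1304 at an unadjusted p under 0.05) and 0 with the background covariate (1011), 25 with array weights, 12 with an intensity trend and robust prior, 5 with the most variable probe set, 7 above the highest background, 6 above the median, and 0 to 2 without 1 array. Probe sets called numbered 5 as reported (3538 at an unadjusted p under 0.05), and 0 with the background covariate (2821), 67, 9, 8 and 11 with array weights, the trend, the probe sets above the highest background and those above the median, and 0 to 2 without 1 array. The list median of chemokine receptors was 0.029 as the mean of probe sets, 0.060 with the most variable, −0.16 with either filter (3 genes), and ran from −0.073 to 0.030 without 1 array. For other CC ligands it was 0.0054 with the background covariate, 0.0078, 0.0023, 0.048 and 0.066 with the mean of probe sets, the most variable, median centring and the higher filter (1 gene, CCL1), and −0.033 to 0.020 without 1 array. For CXC, C and CX3C ligands it was −0.19 above the median (2 genes). For transcription factors it was 0.13 with the background covariate, 0.0084 as the mean of probe sets and 0.040 to 0.10 without 1 array, and for inducers 0.012 with the background covariate and −0.046 to 0.011 without 1 array. With the mean background rich in G and C, or the array median, as the bound, 5 of the 14 probe sets were above it on all arrays, where CXCL10 joined CCL17 and CCL5.

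The replicate numbers were not taken to pair the arrays, because the labels do not say that a number marks a shared culture or day. Deviations of arrays with the same replicate number correlated at 0.0014, 0.13 and −0.031. Between a BATF3 siRNA array and a control array with unlike numbers the correlations ran from −0.095 to 0.11. With the replicate block 5 probe sets and 3 genes were called, BATF3 was at −1.20 (limma adjusted p = 0.0137) and no chemokine changed its call. Most chemokine levels lie between the background bounds, which limits what their differences show.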
